A study of Danio rerio with 6 samples.

Results

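The CCN genes encode secreted matricellular proteins, which sit in the extracellular matrix and act on cells rather than bear load. They were followed here in dissected zebrafish hearts at 48 and 56 hpf (hours post fertilization), the interval in which the atrioventricular valve starts to form. Of 9 gene names listed for the family, 8 were found in the deposited tables by exact match (*ctgfa*, *ctgfb*, *cyr61*, *cyr61l1*, *wisp1a*, *wisp1b*, *wisp2* and *wisp3*). They covered 9 of the 29978 genes listed, since *wisp2* names 2 Ensembl genes. No row bears the name *nov*, and that gene was not analysed here. Each stage was represented by 3 pools of hearts, 1 library per pool. The labels give the AB line and the methods *myl7:EGFP* embryos, in which a myocardial promoter drives the fluorescent protein, and no mutation or treatment that differs between the stages is given. Per the methods all embryos were kept in PTU (phenylthiourea), which blocks pigment formation. Values are reads counted per gene after division by the size factor of their library (normalized counts), and p-values measure only the spread between these pools. No length of the annotated transcripts was used, so levels were compared between pools and not between genes.

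CCN proteins share a string of modules, with a domain like that of the insulin-like growth factor binding proteins, a von Willebrand repeat, a thrombospondin repeat and, in most of them, a carboxy-terminal cystine knot. They bind integrins and heparan sulfate proteoglycans and modulate growth factors held in the matrix. *CYR61* (CCN1) and *CTGF* (CCN2) are widely used as readouts of the transcriptional co-activators YAP and TAZ, which act through TEAD factors, and of serum response factor (SRF), and in mammalian cells both are induced by stretch and flow. In the mouse, *Ccn1* is required for septation of the atrioventricular canal. *WISP1*, *WISP2* and *WISP3* (CCN4 to CCN6) were named as Wnt-induced proteins, and in humans loss of *WISP3* causes a disease of joint cartilage.

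The libraries held between 14369087 and 26942838 reads counted on genes, and 3 reads, taken as the floor of detection, corresponded to 2.13 to 4.0 normalized counts. All 9 myocardium markers and all 9 endocardium markers found were above this floor, so the defining genes of the labelled tissue were present. Their sums were uneven at 48 hpf. The myocardium markers summed to 379188 normalized counts in replicate 1 against 799008 and 943051 in replicates 2 and 3, and to between 353149 and 405003 in the 56 hpf pools. The endocardium markers summed to 22072 in replicate 1 at 48 hpf, to 33885 and 42681 in the other pools of that stage and to between 23118 and 25917 at 56 hpf. Markers of blood and of tissues outside the heart also differed between the stages. By limma 11 of 17 skeletal muscle, 5 of 12 cartilage and 1 of 11 epidermis genes tested passed the threshold as higher at 56 hpf. As lower, 7 of 13 blood genes passed. Of all genes, 0.87% passed as higher and 0.211% as lower. In pools of whole hearts, fewer cells of a type and less RNA per cell cannot be told apart.

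Among the CCN genes, *cyr61* had the lower counts and *wisp1b* and *wisp2* the higher counts at 56 hpf in every pool, but no member passed the threshold of the main test. Of the 9 genes, 7 passed the filter on low counts, and of these 0 had an adjusted p under 0.05 by limma with the replicate number as a block, where 1.08% of the 20805 genes tested did. At an unadjusted p under 0.05 there were 2, *cyr61* and *wisp1b*, against 18.6% of all genes tested. By edgeR's likelihood ratio test 2 passed after adjustment (the same 2 genes, against 8.37% of all genes), by DESeq2 1 (*cyr61*, against 7.66%) and by edgeR's quasi-likelihood test 0 (against 0.75%). DESeq2 gave *wisp1a*, *wisp1b* and *wisp2* no adjusted p, so they could neither pass nor fail by it. Of the 7, *cyr61*, *wisp1b* and *wisp2* (3 genes) showed no overlap between the pools of 48 and 56 hpf, where 24.4% of all genes tested had this property (11.3% lower and 13.1% higher at 56 hpf). *wisp1b* and *wisp2* passed the filter through their 56 hpf pools, so that their presence among the tested genes depends on the stage at which they were high. The log2 fold change was below 0 for 5 members, against 50.8% of all genes tested, and above 0 for 2. These signs were kept with TMM factors and on the scale of the deposited values. On the latter scale, however, the pools of *cyr61* overlapped between the stages (507 at 48 hpf and 533 at 56 hpf in replicate 1). The median over the 7 was -0.35, and that of all genes tested -0.01.

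**Figure D1:**
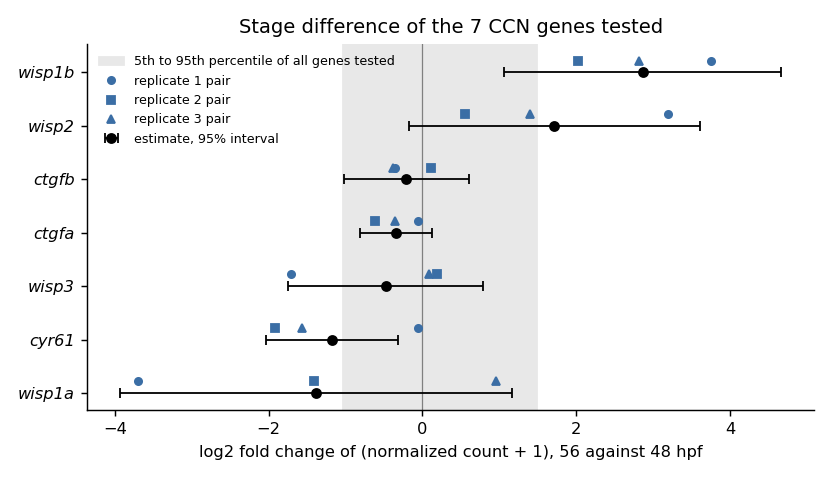
Log2 fold change of (normalized count + 1), 56 against 48 hpf, on the x axis for the 7 CCN genes tested. Black points are limma estimates with 95% intervals, small symbols are the differences within same-numbered pools, and the grey band runs from the 5th to the 95th percentile of all genes tested. Only the intervals of *wisp1b* (1.06 to 4.67) and *cyr61* (-2.04 to -0.32) lie to one side of 0. These intervals are not adjusted over genes (limma adjusted p = 0.121 and 0.158). *wisp1b* entered the fit through its 56 hpf pools, where it was high, so its interval is no independent support for a rise.

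*cyr61* (ENSDARG00000023062), one of the founding members of the family and a YAP target, was measured at 508, 1434 and 955 normalized counts in the 48 hpf pools (replicates 1 to 3) and at 487, 377 and 323 in the 56 hpf pools. The 56 hpf pools lay close together while the 48 hpf pools spread 2.82-fold, and replicate 1 at 48 hpf was nearly at the level of the later stage. The 48 hpf mean of 966 ± 463 was 2.44 times the 56 hpf mean of 396 ± 83.7 (SD over 3 pools each). limma put the log2 fold change at -1.18 with a standard error of 0.36 and an adjusted p of 0.158, and all earlier pools were above all later ones (p = 0.1 by an exact permutation test, two-sided, the smallest value that 3 pools against 3 allow). Within same-numbered pools the difference was -0.06 in replicate 1, -1.92 in replicate 2 and -1.56 in replicate 3, on the log2 scale. The adjusted p was 0.0462 by edgeR's likelihood ratio test and 0.0233 by DESeq2. Leaving out replicate 1 at both stages gave -1.74 with an adjusted p of 0.00661 from limma, a fit in which 10.9% of all genes passed, and leaving out replicate 2 gave -0.81 with an adjusted p of 0.765. Without the 48 hpf pool of replicate 1 alone the gene also passed, as did 5.54% of all genes. On the scale of the deposited values the stages overlapped, since replicate 1 had 507 at 48 hpf and 533 at 56 hpf.

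*ctgfa* (ENSDARG00000042934) is a zebrafish form of the connective tissue growth factor gene and, like *cyr61*, a YAP and SRF target. The 48 hpf pools, in the order of replicates 1 to 3, held 556, 1591 and 1558 normalized counts, and the 56 hpf pools 532, 1037 and 1213. Replicate 1 was the lowest pool at both stages, and the stages overlapped. Means were 1235 ± 588 for the earlier and 927 ± 354 for the later stage (SD over 3 pools each). The difference was -0.35 on the log2 scale (standard error 0.20, 95% interval -0.82 to 0.12, limma adjusted p = 0.392). The later value was the lower one in 3 of 3 same-numbered pairs, though no source used here says that such pools shared an experiment. On the scale of the deposited values replicate 1 was instead higher at 56 hpf, with 554 at 48 hpf and 582 at 56 hpf. limma without the block gave an adjusted p of 0.719. An exact permutation test of the 3 against 3 pools, which leaves the pairs aside, gave p = 0.5 (two-sided). The size of the difference rested on single pools. Without the block it was -0.85 when replicate 1 at 48 hpf was left out and 0.01 when replicate 1 at 56 hpf was left out.

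*ctgfb* (ENSDARG00000070586), the second zebrafish form of the same gene, behaved differently across the pools. Its counts, normalized, were 117, 83.8 and 33.0 in the pools of 48 hpf and 91.3, 90.6 and 24.97 in those of 56 hpf, again in the order of the replicates. Here replicate 3 was the lowest pool at both stages, the pools within a stage spread 3.55-fold and 3.66-fold, and the stages overlapped. Means of 78.0 ± 42.4 and 68.97 ± 38.1 (SD over 3 pools each) went with a log2 difference of -0.21 by limma (standard error 0.34, 95% interval -1.03 to 0.60, adjusted p = 0.782). Its sign was not stable, with values between -0.74 and 0.40 when single pools or replicate numbers were left out.

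**Figure D2:**
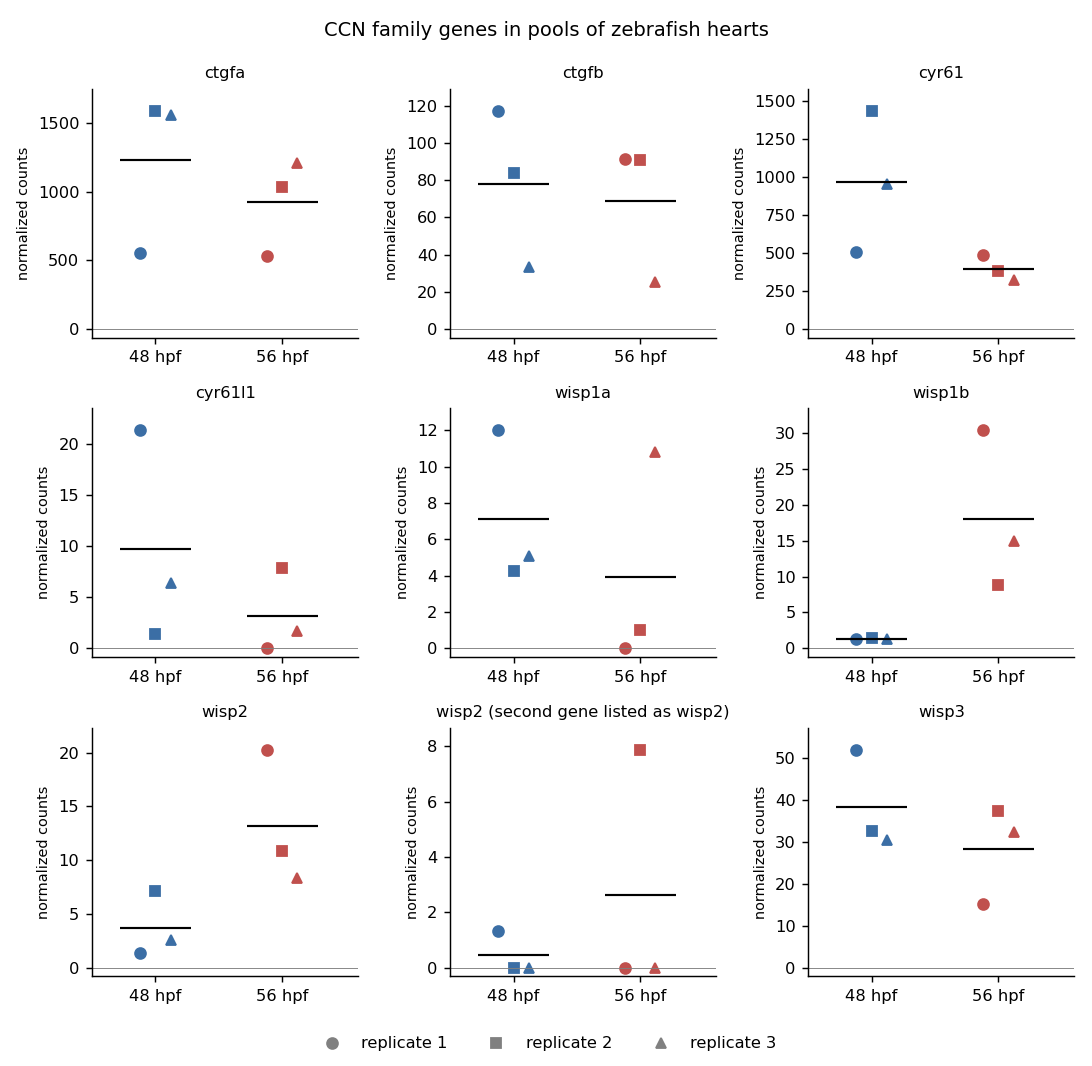
Normalized counts on the y axis, each panel with its own scale from 0, for the 9 CCN genes in 3 pools at 48 hpf (blue) and 3 at 56 hpf (red). Symbols give the replicate number and horizontal lines the mean. *ctgfa* and *cyr61* are low in replicate 1 at 48 hpf (556 and 508), *ctgfb* is low in replicate 3 at both stages (33.0 and 24.97), and *wisp1b* is between 8.87 and 30.4 at 56 hpf against 1.27 to 1.42 at 48 hpf.

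The spread of *ctgfa*, *cyr61* and *ctgfb* between pools of the same stage was large for their level. The within-stage SD of *ctgfa* was 0.76 on the log2 scale, above 97.0% of the 4026 tested genes whose mean count lay within 2-fold of its own, whose median SD was 0.26. For *cyr61* it was 0.57, above 90.45% of 5089 such genes. For *ctgfb* it was 0.99, above 92.0% of 4901 such genes. The same measure was not high for *wisp1b* (0.59, above 25.8% of 2976 genes), *wisp2* (0.78, above 41.4% of 2563 genes) or *wisp3* (0.55, above 43.6% of 4249 genes). With 1, 2 and 1 reads, the 48 hpf pools of *wisp1b* could show little spread, while its 56 hpf pools spread 3.43-fold. Those of *wisp2* spread 5.33-fold at 48 hpf and 2.44-fold at 56 hpf. At such counts a low value does not show that the pools were alike. *wisp1a*, with few reads, had 1.39, above 78.6% of 1322 genes.

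Replicate 1 was the lowest of the 48 hpf pools for *ctgfa*, for *cyr61* and for both sums of heart markers, while replicate 3 had the highest marker sums but lower counts of both genes than replicate 2. Per 100000 counts of the 9 myocardium markers, *cyr61* gave 134, 180 and 101 counts in the earlier pools and 120, 104 and 91.4 in the later ones. On this scale the stages overlapped, with means of 138 ± 39.3 and 105 ± 14.5 (SD, n = 3; p = 0.3 by a two-sided exact permutation test). Per 10000 counts of the 9 endocardium markers, *cyr61* had 230.1, 423 and 224 counts at 48 hpf and 188, 163 and 132 at 56 hpf. On that scale every later pool was below every earlier one (p = 0.1 by a two-sided exact permutation test, again the smallest possible). The endocardium list as drawn up included *klf2a*, a flow-responsive gene that the authors report as rising between these stages. It also included *notch1b*, counted below as a binding partner too. Of the 9 markers found, 1 passed edgeR's likelihood ratio test as higher at 56 hpf (5.79% of all genes). Whether their sum follows endocardial content was not tested. *ctgfa* gave 147, 199 and 165 counts per 100000 myocardium counts at 48 hpf and 131, 287 and 344 at 56 hpf. Its mean was thus higher at 56 hpf relative to the myocardium, 254 ± 110 against 170.3 ± 26.6 (SD, n = 3, p = 0.4 by the same exact test), with replicate 1 lower. Per 10000 endocardium counts the *ctgfa* means were close, 383 ± 156 at 56 hpf against 362 ± 109 at 48 hpf (SD, n = 3). There the stages overlapped (p = 0.9 by the same exact test). The part that the makeup of the pools plays in the *cyr61* and *ctgfa* values was not tested.

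**Figure D3:**
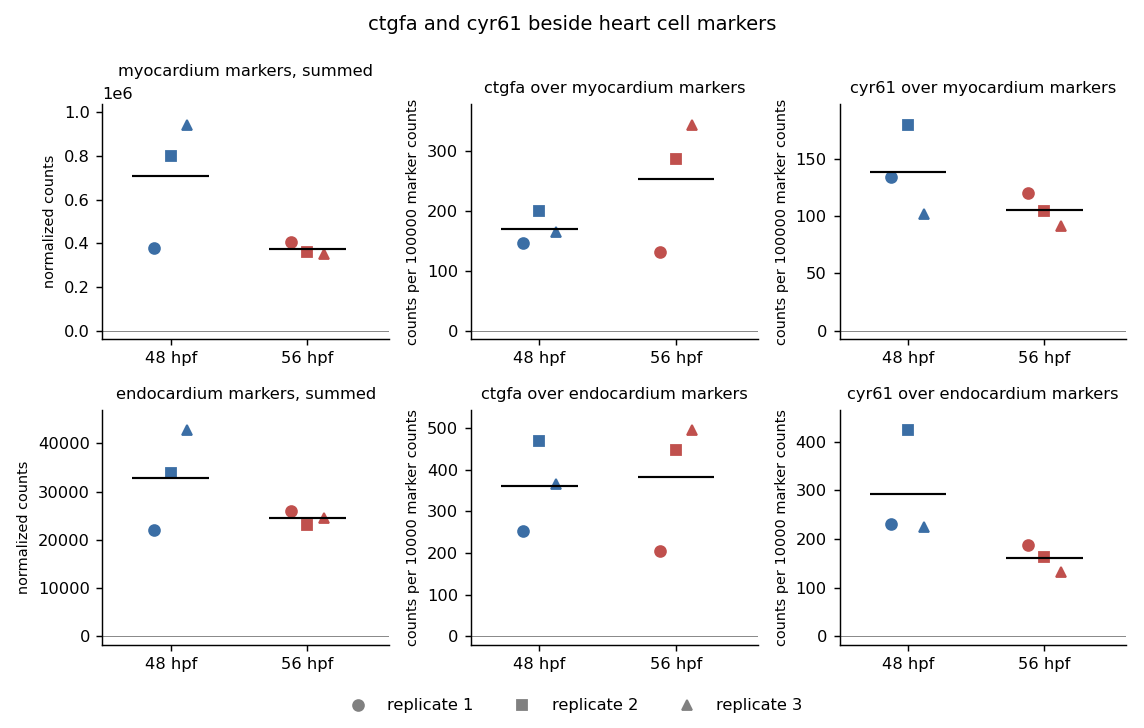
Left, summed normalized counts of the 9 myocardium and the 9 endocardium markers by pool. Middle and right, *ctgfa* and *cyr61* counts per 100000 myocardium marker counts (top) and per 10000 endocardium marker counts (bottom); symbols give the replicate number and lines the mean. Replicate 1 at 48 hpf is the lowest of its stage in both sums (379188 and 22072), and *cyr61* stays separate between the stages only relative to the endocardium markers.

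The ratio of *cyr61* to *ctgfa* in a library does not depend on the size factor, and its change between libraries does not depend on gene length. Replicate 1 gave 0.914 at 48 hpf and 0.916 at 56 hpf, replicate 2 gave 0.902 and 0.364, and replicate 3 gave 0.613 and 0.266. Taken by replicate number, the ratio was thus lower at the later stage in replicates 2 and 3 and alike in replicate 1. With the pairs left aside the stages overlapped, and replicate 1 at 56 hpf had the highest ratio of all. Over the 6 libraries the genes most like *cyr61*, by the root mean square difference of centred log2 values among 14973 genes, were *otomp* (0.17), which encodes an otolith matrix protein, *flot1a* (0.18), which encodes flotillin 1a, and *nrarpb* (0.21), which encodes a Notch-regulated ankyrin repeat protein. Those most like *ctgfa* were *si:dkey-29l4.4* (0.13), *ing2* (0.15) and *hddc2* (0.15). In likeness to *cyr61*, *ctgfa* ranked 4472 and *ctgfb* 11908, and in likeness to *ctgfa*, *cyr61* ranked 6804 and *ctgfb* 14170.

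*wisp1b* (ENSDARG00000076685), a CCN4 gene, was near absent at 48 hpf and present in each pool at 56 hpf. Only 1, 2 and 1 reads fell on it in the 48 hpf libraries, against 30, 9 and 18 in the 56 hpf libraries, which is between 1.27 and 1.42 normalized counts against 30.4, 8.87 and 14.98. The earlier pools were all at or under the floor of 3 reads. Scaled for size factors, the summed reads were 13.1 times as many at 56 hpf, with a 95% interval of 4.85 to 49.8 that covers counting error only (exact binomial). By limma the log2 fold change was 2.87 with a standard error of 0.76 and an adjusted p of 0.121. The stages did not overlap (p = 0.1 by the exact permutation test of 3 against 3 pools). At such counts the fitted value depends on the pseudocount, and with a pseudocount of 10 it was 1.24. By edgeR's likelihood ratio test the adjusted p was 0.00234. The gene entered these fits through its 56 hpf pools, the stage at which it was high, so these values are no independent support for a rise. Some markers of heart tissues such as the epicardium, of blood and of tissues outside the heart also differed in these pools. The 5 epicardium genes summed to between 1024 and 1996 normalized counts at 48 hpf and between 2383 and 3037 at 56 hpf. They were thus higher in every later pool as a sum, though 0 of them passed the threshold by limma (1.08% of all genes). The epidermis genes summed to between 151383 and 411653 normalized counts at 48 hpf and between 446889 and 750411 at 56 hpf, and the 8 notochord and floor plate genes to between 438 and 1156 and between 1394 and 1694, so that both were higher in every later pool. The sums overlapped between the stages for the skeletal muscle genes (13315 to 28968 and 28362 to 38726) and for the 12 cartilage genes (15170 to 27311 and 24015 to 26548). Those of the liver and yolk genes overlapped too (7390 to 26640 and 26249 to 80328). So did those of the 6 genes of outflow tract smooth muscle, a heart tissue (2602 to 4029 and 1608 to 4320). Of these 6, 1 passed by limma as higher (0.87% of all genes). The sums of the 11 neural genes also overlapped (3007 to 3724 and 2757 to 3607), and 0 of them passed by limma (1.08% of all genes). Taken singly, 15 of 17 skeletal muscle genes showed no overlap between the stages, 0 of them as lower at 56 hpf. Of the 12 cartilage genes 7 showed none, 1 of them as lower, where 24.4% of all genes tested had this property. The blood genes were lower, with 59725 to 82432 against 10586 to 29447. None of these markers was at 0 in all libraries, and their part in the *wisp1b* and *wisp2* counts was not tested.

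*wisp2* (ENSDARG00000077882), a CCN5 gene and the family member that lacks the cystine knot in mammals, was hit by 1, 10 and 2 reads in the earlier libraries and by 20, 11 and 10 in the later ones. In normalized counts these were 1.33, 7.10 and 2.54 against 20.3, 10.8 and 8.32. The stages were separated by little, between replicate 2 at 48 hpf and replicate 3 at 56 hpf. Summed reads scaled for size factors were 2.90 times as many at 56 hpf (95% interval 1.52 to 5.90, counting error only). limma estimated the log2 fold change at 1.71 (standard error 0.80, 95% interval -0.18 to 3.60, adjusted p = 0.311). As the stages did not overlap, the later pool was higher in 3 of 3 same-numbered pairs, which any other pairing would also give. The exact permutation test that ignores the pairs gave p = 0.1. Like *wisp1b*, this gene passed the filter through its 56 hpf pools, so its separation is no independent support for a rise. The other gene listed as *wisp2* (ENSDARG00000037155), which the reference table of gene names gives as *si:dkey-78k11.9*, was not tested. It had 1, 0 and 0 reads at 48 hpf and 0, 8 and 0 at 56 hpf, all 8 in replicate 2.

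*wisp1a* (ENSDARG00000054331), the other CCN4 gene, had 9, 6 and 4 reads at 48 hpf and 0, 1 and 13 at 56 hpf. It was lower at 56 hpf in replicates 1 and 2 and higher in replicate 3, and limma placed its log2 fold change at -1.38 (standard error 1.07, 95% interval -3.93 to 1.16, adjusted p = 0.530). Its interval holds both a large decrease and a doubling, so that these pools do not settle the direction of a difference. In the RefSeq annotation of the GRCz12tu assembly its span overlaps that of *ndrg1a*, and the sources used here do not say whether counting used the strand, so its reads are uncertain. *wisp3* (ENSDARG00000071048), the CCN6 gene, was at 52.0, 32.7 and 30.5 normalized counts in the earlier pools and at 15.2, 37.4 and 32.5 in the later ones. Replicate 1 was the highest pool at 48 hpf and the lowest at 56 hpf, and the estimate of -0.48 by limma on the log2 scale (standard error 0.53, adjusted p = 0.674) turned to 0.14 without replicate 1. The span of *wisp3* overlaps that of *tube1* in the same annotation, that of *ctgfa* overlaps 1 lncRNA gene and that of *cyr61l1* 2, so the same limit holds for them. Per the methods, however, reads were counted on Ensembl genes of another assembly (Zv9). Whether the overlaps of these spans touched the counted reads was not tested. *cyr61l1* (ENSDARG00000035422), a further CCN1 gene, did not pass the filter, with 16, 2 and 5 reads at 48 hpf and 0, 8 and 2 at 56 hpf. Its summed reads scaled for size factors were 0.400 times as many at 56 hpf (95% interval 0.170 to 0.874, counting error only), and 16 of the 23 reads at 48 hpf came from replicate 1.

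Genes that act upstream of the CCN genes, bind their products or share their regulators were examined as lists. Of 24 genes of the Hippo-YAP pathway and TEAD factors tested, 0 passed limma's threshold after adjustment (1.08% of all genes), 5 had an unadjusted p under 0.05 (2 higher, 3 lower, against 18.6% of all genes), and the median log2 fold change was -0.02. By edgeR's likelihood ratio test 3 passed after adjustment (8.37% of all genes) and by the quasi-likelihood test 0. *amotl2a*, which encodes an angiomotin-like scaffold that binds YAP, was counted at 2853, 6306 and 4793 in the normalized 48 hpf libraries and at 1944, 2635 and 2519.8 in those of 56 hpf. Its pools did not overlap, and replicate 1 was the lowest pool at both stages, as for *ctgfa* (limma log2 difference -0.91, standard error 0.21, adjusted p = 0.0967). *tead1b*, a TEAD factor, had a log2 fold change of -0.62 (adjusted p = 0.158 from limma). *vgll4l* and *vgll2a*, which encode vestigial-like cofactors of TEAD, had 1.09 and -1.39 (adjusted p = 0.117 and 0.128 from limma).

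Among 21 tested YAP and SRF target genes outside the family, 1 passed the threshold by limma, as lower at 56 hpf (0.211% of all genes), and 0 as higher (0.87% of all genes). It was *fstl1a*, which encodes a secreted follistatin-like protein. *fstl1a* dropped from 649, 1038 and 806 normalized counts in the earlier pools to 285, 428 and 322 in the later ones, which limma put at -1.26 on the log2 scale (standard error 0.19, adjusted p = 0.0393). Its pools did not overlap between the stages (as for 24.4% of all genes), so that it fell in each pair however the pools are paired. The adjusted p was above the threshold in 6 of the 9 fits with pools or replicate numbers removed, up to 0.380 without replicate 2. The list as a whole had a median log2 fold change of -0.34, beside -0.01 for all genes tested, and by the likelihood ratio test 2 of its genes passed as higher and 2 as lower, where 5.79% and 2.58% of all genes did. The 2 lower genes were *fstl1a* and *amotl2a*, and *amotl2a* is also counted in the Hippo-YAP list. That list shares *amotl2b* and *lats2* with this one as well, and *tgfb2* is also in the TGF-beta list. *nuak2* (a kinase gene) and *thbs1b* (a thrombospondin gene) had log2 fold changes of 0.97 and 1.15 (adjusted p = 0.0841 and 0.145 from limma), against -1.18 for *cyr61*.

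Of 26 tested genes for reported binding partners of CCN proteins, 0 passed by limma (1.08% of all genes), 10 had an unadjusted p under 0.05 (7 higher, 3 lower, against 18.6% of all genes) and the median log2 fold change was 0.14. These are Ensembl genes, of which 27 were found under 25 names, since *notch1a* names several. By the likelihood ratio test 4 passed as higher and 1 as lower, against 5.79% and 2.58% of all genes. *itgb3a*, an integrin subunit gene whose product binds CCN1 and CCN2 in mammals, went from 815, 518 and 476 normalized counts in the earlier to 1518, 2578 and 2523 in the later pools (limma log2 difference 1.87, standard error 0.32, adjusted p = 0.0571). Without the block limma gave it an adjusted p of 0.0146, in a fit where 2.69% of all genes passed. *fn1b*, a fibronectin gene, had a log2 fold change of 2.38 (adjusted p = 0.0809 from limma) and also passed without the block (adjusted p = 0.0210). Both genes passed by the likelihood ratio test (adjusted p = 4.90e-05 for *itgb3a* and 3.22e-05 for *fn1b*) and by DESeq2 (4.52e-06 and 7.63e-09). *gpc1b*, a glypican gene, had 0.94 and *vegfab*, a vascular growth factor gene, -0.80 (adjusted p = 0.116 and 0.119 from limma).

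Of 13 tested genes of the TGF-beta pathway, which induces *CTGF* in mammalian cells, and of 5 tested genes for SRF and myocardin-related factors, 0 passed by limma or by the likelihood ratio test (1.08% and 8.37% of all genes). The medians were -0.05 and 0.12, with 1 gene of each list at an unadjusted p under 0.05 (18.6% of all genes). These were *smad3a* (0.59, adjusted p = 0.189 from limma) and *mkl1b* (0.81, adjusted p = 0.254). Of 14 tested genes for other secreted proteins with an IGFBP-type domain, 0 passed by limma (1.08% of all genes), 6 had an unadjusted p under 0.05 (18.6% of all genes), all as higher at 56 hpf, and 4 passed by the likelihood ratio test, also as higher (5.79% of all genes). *igfbp2a*, *htra1a*, *igfbp5a* and *igfbp7* had log2 fold changes of 1.39, 1.22, 1.99 and 1.24 (adjusted p = 0.0855, 0.0941, 0.121 and 0.123 from limma), and for each the pools did not overlap, as for 24.4% of all genes. Of these 4, *htra1a* passed without the block (adjusted p = 0.0444 from limma). The median of that list was 0.04.

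**Figure D4:**
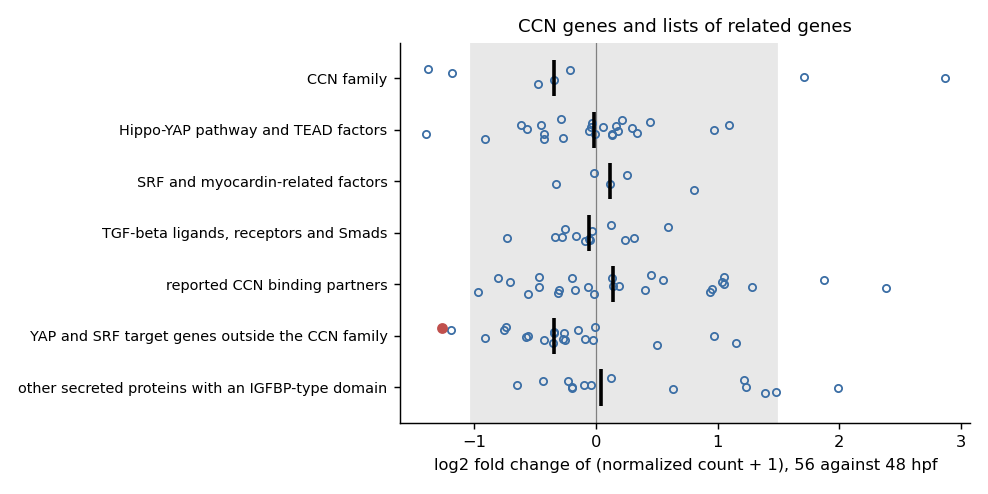
Log2 fold change of (normalized count + 1), 56 against 48 hpf, on the x axis for the 7 CCN genes tested and for 6 lists of related genes. Circles are genes, the filled red circle (*fstl1a*, -1.26) is the only one with an adjusted p under 0.05, bars are list medians (between -0.35 and 0.14), and the grey band runs from the 5th to the 95th percentile of all genes tested.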

How the data were processed

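RNA of pooled hearts was sequenced, 3 pools at 48 hpf and 3 at 56 hpf. Per the methods, the authors aligned reads to Zv9 with Tophat, kept unique alignments and counted them with HTSeq on Ensembl genes; the processing notes of the submitters name Bowtie2 2.1.0 and DESeq 1.10.1 instead, and kit and sequencer also differ between labels and methods. If only unique alignments were kept, reads shared by near-identical genes are missing. The deposited signal of a gene is its count divided by a size factor. In each library 100% of values were whole multiples (within 0.001) of the smallest value, which gave back the reads. The reads were divided by RLE size factors drawn from these 6 libraries, because the deposited scale put the median log2 fold change at 0.11 against -0.01. log2(normalized count + 1) of the 20805 genes kept by filterByExpr (minimum count 10, total 15) was fitted with limma 3.58.1 (R 4.3.3, variance trend, replicate number as a block), with Benjamini-Hochberg adjustment and a threshold of 0.05. The pseudocount understates changes of low genes. The methods adjust for differences between experiments; no source used here says which pools shared one, and the replicate number was taken for it. The titles also carry tags of unstated meaning, and the only tag found at both stages joins replicate 1 of 48 hpf with replicate 3 of 56 hpf. edgeR 4.0.16 and DESeq2 1.42.0 on the recovered reads, other scalings, filters and pseudocounts, thinned reads and left-out pools were alternatives. In these the genes tested were held fixed except for the filters and for DESeq2, which gave an adjusted p for 19594 genes. The fits were tested on 1 set of simulated reads, where for each tool the share of unchanged genes among those called was above the nominal rate. All members are named; of each list up to 4 genes with the smallest p and a mean of at least 50 normalized counts are. Members, lists and tests were chosen with earlier results of these data known. Of the 9 identifiers, 8 matched the table of gene names.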

Additional observations from a re-analysis of the deposited data

How the results depend on the processing

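The number of genes with an adjusted p under 0.05, 225 by limma with the block, was 560 without the block, 1741 by edgeR's likelihood ratio test, 1501 by DESeq2, 346 with no filter on low counts and 137 with at least 10 reads in every library, and between 53 and 2271 when a replicate number (with the block) or a pool (without it) was left out. The number of CCN genes was 0 by limma, 2 by the likelihood ratio test, 1 by DESeq2 and between 0 and 1 in the left-out fits, where the exception was *cyr61* without replicate 1 at both stages or at 48 hpf. Of 134 alternative values for the 7 genes, 125 kept their sign and side of the threshold, 5 passed it (4 of *cyr61*, 1 of *wisp1b*) and 4 changed sign, all in left-out fits: *ctgfa* ranged from -0.85 to 0.0136, *ctgfb* from -0.74 to 0.40 and *wisp3* from -0.81 to 0.14. Chosen after seeing the data, the scaling to heart markers turned the difference of *ctgfa* means from -24.9% to 49.0% (myocardium) and 5.75% (endocardium), and moved that of *cyr61* from -59.0% to -23.8% (myocardium) and -44.95% (endocardium). Same-numbered pools deviated together little or not at all (r across genes 0.03, 0.19 and -0.05 for replicates 1 to 3, which are not independent). Pools of unlike number gave -0.16 to 0.09, so only replicate 2 lay above them. The number may thus not mark a shared experiment, and these values do not settle it. The block changed no call of a CCN gene. DESeq2 gave no adjusted p for *wisp1a*, *wisp1b* and *wisp2*, and no order of levels per kilobase was run, since the reference table holds gene spans. Counts under about 30 reads limit *wisp1a*, *wisp1b*, *wisp2* and *cyr61l1*.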

Other observations

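A further CCN1 gene outside the listed names, *cyr61l2* (ENSDARG00000093315), was looked at after the values of the others were seen. Its 48 hpf pools held 581, 511 and 521 normalized counts and its 56 hpf pools 557, 365 and 460.2, in the order of the replicates. Unlike *cyr61* and *ctgfa*, it was not low in replicate 1 at 48 hpf, and its pools spread 1.14-fold at that stage. limma gave a log2 difference of -0.24 (standard error 0.20, 95% interval -0.72 to 0.24, adjusted p = 0.565), and the stages overlapped.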
